A study of Mus musculus with 6 samples.

Results

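The genes described here encode the core machinery of autophagy and its cargo receptors, read by RNA-seq in calvaria (bones of the skull roof) from mice aged 2 to 3 days. They were taken by symbol: the Atg genes, the Ulk kinases, the ATG8 proteins (Map1lc3a, Map1lc3b, Gabarap, Gabarapl1 and Gabarapl2), Becn1, Pik3c3, Uvrag, Ambra1, Rb1cc1, Wipi1, Wipi2, and the receptors Sqstm1, Nbr1, Optn, Tax1bp1 and Calcoco1. The rule found 37 of the 23358 genes in the count table, and all 37 were abundant enough to test, with at least 206 counts in every library. The samples were 3 libraries labelled as a conditional knockout of Ezh2 (cKO 8, cKO 10 and cKO 37), the methyltransferase of Polycomb repressive complex PRC2, and 3 labelled wild type (WT 14, WT 27 and WT 29). Osx, which stands in the labels of all 6, is an older name for Sp7, an osteoblast transcription factor. The labels name no allele or Cre line, so what the WT mice carried of either is not known here. They also do not say whether each library is 1 mouse, and the p-values therefore measure the spread between these libraries, which may be technical. All bones had been treated with collagenase and trypsin before freezing.

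Autophagy delivers cytoplasm and organelles to lysosomes inside a double membrane, the autophagosome. The ULK kinase complex starts the process, a class III PI3 kinase complex marks the site with a phospholipid, ATG9 vesicles and ATG2 bring membrane, and a conjugation cascade attaches ATG8 proteins to it. Cargo receptors bind both ubiquitinated or other cargo and the attached ATG8 proteins. In bone, autophagy is known from osteoblasts and osteocytes, where it has been linked to mineral deposition and cell survival, and from osteoclasts.

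Gene totals ran from 60449016 to 95439578 counts per library, and the autophagy genes together took 0.177% to 0.218% of them. Ezh2 RNA was 20.7, 21.7 and 20.4 CPM in WT and 19.2, 20.6 and 19.8 CPM in cKO (log2 fold change -0.07 ± 0.07, adjusted p = 0.507). Here and below, library values follow the order 14, 27, 29 for WT and 8, 10, 37 for cKO. CPM are counts relative to library size after TMM scaling, the fold change is cKO over WT with its standard error, and adjusted p is from the edgeR quasi-likelihood test over all 16089 genes tested, with 0.05 as the threshold. The deleted part of Ezh2 is not named, so this count does not check the labels, and cKO below means the libraries so labelled. Markers of osteoblasts were present at high levels (Col1a1 at a mean of 12859 RPKM and Bglap at 90.3 RPKM in WT), whereas lists for neutrophils, erythroid cells, B cells and muscle summed to at most 10.2 CPM in any library (marker sums are by total count, without TMM). The summed chondrocyte markers were between 813 and 8347 CPM, with both groups spread over that range. Endothelial markers summed to 478 to 541 CPM in WT and 504 to 658 CPM in cKO. All 5 of them were above 0 (median log2 0.07), but none passed. Of 9 early-response and heat shock genes that tissue dissociation can induce, 8 were lower in cKO, and their sum was 3701 to 3927 CPM in WT and 2018 to 2421 CPM in cKO. The osteoblast list summed to 77106 to 103428 CPM in WT and 57048 to 73075 CPM in cKO, but Col1a1 alone made up 83.4% to 92.9% of that sum. Of its 8 genes, whose median was log2 -0.10, Sp7 was lower (log2 -0.37 ± 0.09, adjusted p = 0.0211) and 7 did not pass. Of the 7, Alpl (-0.55 ± 0.36), Col1a1 (-0.51 ± 0.20), Runx2 (-0.11 ± 0.07) and Bglap (-0.09 ± 0.26) were below 0. Ibsp (0.34 ± 0.12), Spp1 (0.23 ± 0.14) and Dmp1 (0.16 ± 0.19) were above 0. The osteoclast marker Acp5 and the macrophage marker Csf1r were also lower (log2 -0.56 ± 0.12 and -0.43 ± 0.10, adjusted p = 0.0172 and 0.0191). Beside them, 5 osteoclast and 4 macrophage markers did not pass, but the list medians were log2 -0.55 and -0.25. No osteoclast marker was above 0, with Ocstamp at -0.65 ± 0.18 and Dcstamp at -0.61 ± 0.16 (adjusted p = 0.063 and 0.0505). Of the macrophage markers only Cd14 was above 0 (0.11 ± 0.14). The part of these cells and of the early response in the differences below was not tested. In bulk bone, more RNA per cell and a larger share of cells that express a gene cannot be told apart.

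Of the 37 autophagy genes, 9 were higher in cKO, none was lower, and 28 did not pass. The 9 were Rb1cc1 and Atg13 of the ULK complex, Atg14 of the PI3 kinase complex, the phospholipid reader Wipi2, the ubiquitin-like Atg12, the ATG8 protein Gabarapl1, and the receptors Nbr1, Optn and Calcoco1. Among all genes tested, 12.4% passed in either direction, 5.96% higher and 6.45% lower, against 24.3% of the autophagy genes, every one of them higher. The autophagy genes were chosen with earlier results of these data known, so the shares here and below describe the set without testing it. The differences were small: the 9 rose by 16.8% to 31.6%, and no autophagy gene reached 1.5-fold. The median log2 fold change of the 37 was 0.05, against 0.01 over all genes tested, and the 28 that did not pass lay between -0.17 and 0.19. In 14 of the 37 every cKO library lay above every WT library, and in 2 every cKO library lay below. Over all genes those shares were 17.2% and 17.4%, against 37.8% and 5.41% of the autophagy genes. At an unadjusted p under 0.05 there were 13 higher and 1 lower, the E2-like enzyme Atg3, where 14.5% of all genes were higher and 14.6% lower. DESeq2 and limma voom each called 9 of the 37 higher and 0 lower, where DESeq2 called 7.56% of all genes higher and 8.63% lower and limma voom 5.85% and 6.18%.

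The same 9 genes were called with RLE scaling, limma voom, DESeq2, halved counts and both other filters, with 4.97% to 7.79% of all genes higher in these. The balance over all genes moved with the scaling: 48% of all calls were higher with TMM, 60.9% with upper-quartile factors and 34.3% with an offset that removes trends with GC content and length, an alternative added after the data were seen. Upper-quartile factors, with 7.40% of all genes higher, added Tax1bp1 to the 9. The offset kept 7 of the 9, ended the calls of Atg12 and Atg14, and added Ulk1 as higher and Atg3 as lower. With it, 4.62% of all genes were higher (743 genes, against 1426 lower). Of the 37 autophagy genes, 2 were higher without WT 14, 6 without WT 27 and 2 without WT 29. The number was 1 without cKO 8, 5 without cKO 10 and 5 without cKO 37. In the same order of omitted libraries, 3.48%, 3.42%, 2.44%, 1.78%, 3.62% and 5.73% of all genes were higher. Rb1cc1 passed under every alternative run.

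**Figure D1:**
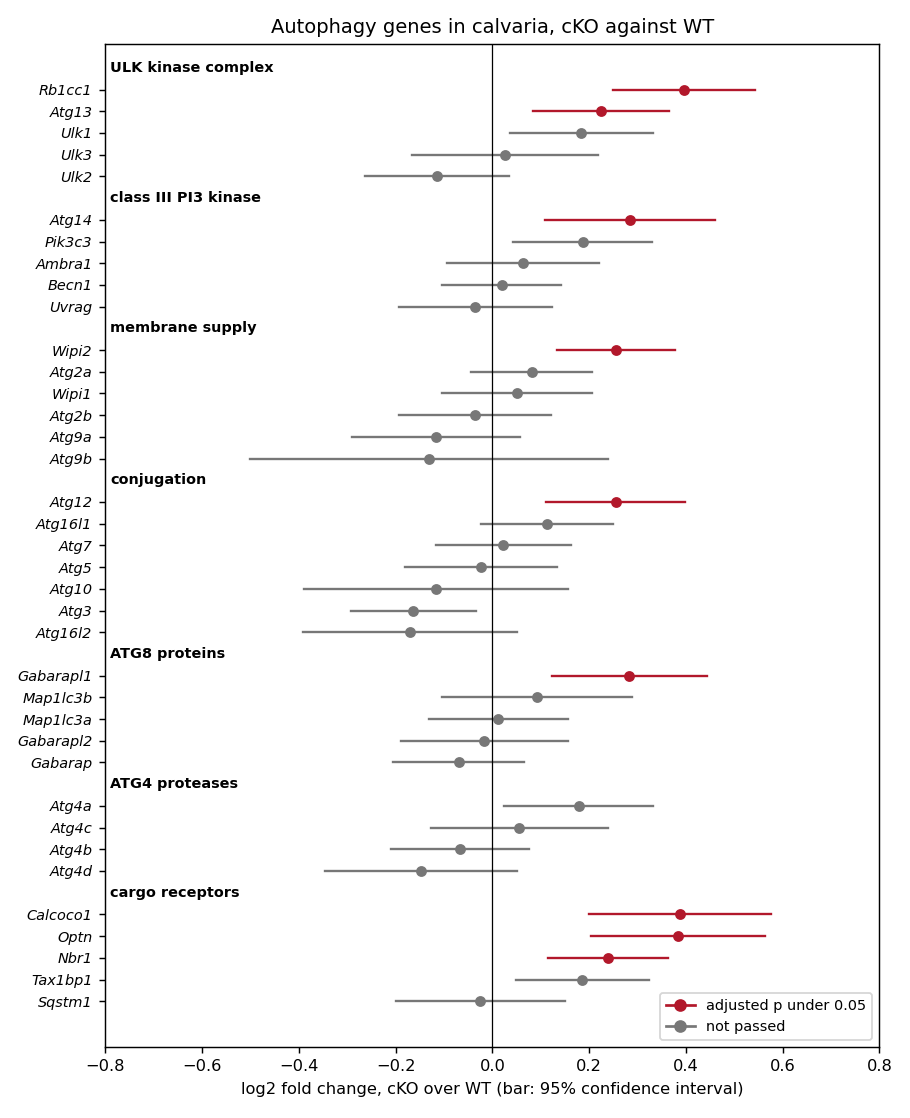
Log2 fold change (cKO over WT, horizontal axis) of the 37 autophagy genes, grouped by role, with 95% confidence intervals as bars. Red marks the 9 genes past an adjusted p of 0.05, all to the right of 0; the other 28 are grey and lie between -0.17 and 0.19.

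In the ULK complex, 2 of 5 genes rose and 3 did not pass. Rb1cc1 (mm10 chromosome 1, 6214662 to 6276104) encodes FIP200, the scaffold on which the kinase complex assembles. It was at 44.3, 43.7 and 45.0 CPM in WT and at 59.0, 53.6 and 62.4 CPM in cKO. The WT libraries were nearly equal and the lowest cKO library, cKO 10, was still above all of them (44.3 ± 0.664 against 58.3 ± 4.42, mean ± SD, n = 3 per group; 1.32-fold, log2 0.40 ± 0.07, adjusted p = 0.00606). Rb1cc1 has 39.1% GC, against a median of 50.5% over all genes tested, and with the GC and length offset its log2 fold change was 0.25 (adjusted p = 0.0267). Atg13 (chromosome 2, 91674612 to 91710592), the adaptor that links the kinase to that scaffold, was at 37.7, 40.9 and 43.0 CPM in WT and 48.0, 47.4 and 46.7 CPM in cKO. The groups did not overlap and the cKO libraries were close together (log2 0.22 ± 0.06, adjusted p = 0.0438). Atg13 passed by a small margin and was lost without any one of the 6 libraries (adjusted p = 0.0522 to 0.143), where its log2 fold change was 0.17 to 0.27.

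None of the kinases themselves passed, except Ulk1 with the GC and length offset (log2 0.26, adjusted p = 0.0206). Ulk1, the main initiating kinase, was at 60.1, 69.4 and 68.01 CPM in WT and 76.2, 75.5 and 72.7 CPM in cKO, with WT 14 the lowest and no overlap (log2 0.18 ± 0.07, adjusted p = 0.0958). Its paralogue Ulk2 was at 71.8 ± 4.02 against 66.4 ± 4.09 CPM, with overlap (log2 -0.11 ± 0.07, adjusted p = 0.297). Ulk3, a related kinase better known from Hedgehog signalling, had a log2 fold change of 0.03 ± 0.09. A ratio of both genes within a library does not depend on scaling. The log2 ratio of Ulk2 over Ulk1 was 0.34, -0.02 and 0.06 in WT and -0.19, -0.28 and -0.05 in cKO. Its mean was 0.30 lower in cKO, every cKO library lay below every WT library, and WT 14 contributed most to the gap (exact two-sided permutation p = 0.1, the smallest that 3 against 3 libraries allow; 0.167 after Benjamini-Hochberg adjustment over the 5 ratios computed). Without WT 14 the difference was -0.19. Atg101, the remaining subunit of the complex, is listed in the file under its older name 9430023L20Rik and so falls outside the rule; it was 12.3 ± 0.909 against 11.4 ± 1.26 CPM (log2 -0.12 ± 0.10, adjusted p = 0.491).

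Among the 5 genes of the class III PI3 kinase group, 1 rose. Atg14 (chromosome 14, 47540893 to 47568434) directs the kinase to sites of autophagosome formation. It was at 12.1, 13.0 and 12.1 CPM in WT and 15.1, 14.5 and 15.8 CPM in cKO, without overlap (1.22-fold, log2 0.28 ± 0.08, adjusted p = 0.0404). Like Atg13 it was lost without any one library (adjusted p = 0.0627 to 0.132), and also with the GC and length offset (0.0605). Its log2 fold change was 0.25 to 0.32 without any one library and 0.25 with the offset. Pik3c3, the catalytic subunit, was at 20.9, 22.5 and 21.7 CPM in WT and 24.0, 24.4 and 25.6 CPM in cKO. Its groups did not overlap either, but it did not pass (log2 0.19 ± 0.07, adjusted p = 0.0831), and its log2 fold change with the GC and length offset was 0.11. Becn1, the Beclin 1 subunit common to both forms of the kinase complex, stood at 58.0, 55.1 and 57.4 CPM in WT and 57.7, 57.4 and 57.7 CPM in cKO. All cKO values fell within the WT range, and the 95% confidence interval of its log2 fold change was -0.10 to 0.14. Uvrag, which takes the place of ATG14 in the endosomal form of the complex, and Ambra1, a Beclin 1 partner, had log2 fold changes of -0.04 ± 0.07 and 0.06 ± 0.07, and neither passed.

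Of the 6 genes that supply and shape the membrane, Wipi2 alone rose. WIPI2 binds the phospholipid made by the PI3 kinase and recruits the ATG16L1 conjugation enzyme. Wipi2 (chromosome 5, 142629584 to 142669370) was at 60.2, 63.1 and 61.9 CPM in WT and 74.0, 72.6 and 74.4 CPM in cKO. The spread within each group was a small part of the gap between them (61.7 ± 1.46 against 73.6 ± 0.929 CPM, log2 0.26 ± 0.06, adjusted p = 0.0158). Leaving out any one of WT 14, WT 29 and cKO 8 ended the call (adjusted p = 0.0539 to 0.0658). Its relative Wipi1 was higher per length (33.1 ± 1.01 against 11.7 ± 0.761 RPKM in WT) and had a log2 fold change of 0.05 ± 0.07. Atg9a, the membrane protein of the supply vesicles, was at 58.3, 63.4 and 62.2 CPM in WT and 58.1, 61.5 and 49.9 CPM in cKO, with cKO 37 the lowest (log2 -0.12 ± 0.08, adjusted p = 0.362). Atg9b, the scarcest of the 37 genes at 0.894 ± 0.195 RPKM in WT, overlaps Nos3 in the file, so its reads are uncertain. Atg2a and Atg2b, the lipid transfer proteins, had log2 fold changes of 0.08 ± 0.06 and -0.04 ± 0.07. Their within-library log2 ratio (Atg2b over Atg2a) overlapped between the groups, at -0.07 to 0.06 in WT and -0.29 to 0.02 in cKO (exact permutation p = 0.4).

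In the conjugation cascade 1 of 7 genes rose. Atg12 (chromosome 18, 46732417 to 46741579), the ubiquitin-like protein that is joined to ATG5, was at 21.8, 22.4 and 21.4 CPM in WT and 25.3, 25.4 and 27.5 CPM in cKO, without overlap. Its log2 fold change was 0.25 ± 0.07 (adjusted p = 0.0297), and 0.12 with the GC and length offset (adjusted p = 0.213). It was lost without any one library as well (0.0594 to 0.107), where its log2 fold change was 0.21 to 0.27. The partner of this protein, Atg5, was at 20.0, 20.6 and 20.1 CPM in WT and 18.8, 19.5 and 21.4 CPM in cKO, and the cKO libraries lay on both sides of WT (log2 -0.02 ± 0.07, adjusted p = 0.862). Atg7, the E1-like enzyme that activates both ATG12 and the ATG8 proteins, was at 31.3, 33.8 and 29.9 CPM in WT and 31.8, 32.2 and 32.5 CPM in cKO, with every cKO value inside the WT range (log2 0.02 ± 0.06, adjusted p = 0.85).

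Atg3, the E2-like enzyme that passes ATG8 proteins to their lipid, was the autophagy gene nearest to a fall. Its values were 36.8, 36.4 and 37.3 CPM in WT and 31.3, 33.6 and 33.7 CPM in cKO, and all cKO libraries lay below the narrow WT range (log2 -0.16 ± 0.06, adjusted p = 0.0917). With the GC and length offset it passed (log2 -0.27, adjusted p = 0.0154). Atg10, the E2-like enzyme of ATG12, was at 4.34 ± 0.196 against 4.01 ± 0.213 CPM (log2 -0.12 ± 0.12). Atg16l1, which holds the ATG12 and ATG5 conjugate at the membrane, and its paralogue Atg16l2 had log2 fold changes of 0.11 ± 0.06 and -0.17 ± 0.10 (adjusted p = 0.261 and 0.296).

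Among the ATG8 proteins, which coat the autophagosome and bind receptors, Gabarapl1 rose and 4 did not pass. Gabarapl1 (chromosome 6, 129533192 to 129542331) was at 33.2, 37.2 and 32.4 CPM in WT and 41.6, 39.2 and 44.3 CPM in cKO. The groups came close, WT 27 at 37.2 and cKO 10 at 39.2, but did not overlap (1.22-fold, log2 0.28 ± 0.07, adjusted p = 0.0301). Leaving out any one of WT 14, WT 29, cKO 8 and cKO 37 ended the call (adjusted p = 0.0709 to 0.11). Its relative Gabarapl2 was at 28.5, 30.3 and 28.5 CPM in WT and 26.3, 27.8 and 32.2 CPM in cKO, on both sides of WT (log2 -0.02 ± 0.08, adjusted p = 0.909). Within libraries, the log2 ratio of Gabarapl1 over Gabarapl2 was 0.22, 0.30 and 0.18 in WT and 0.66, 0.50 and 0.46 in cKO. Thus it was 0.31 higher in cKO with no overlap (exact permutation p = 0.1, adjusted 0.167), and leaving out any one library gave differences of 0.25 to 0.35.

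Gabarap, the most abundant of the 37 genes per length, was at 192, 198 and 185 CPM in WT and 177, 179 and 192 CPM in cKO, with cKO 37 at the WT level (log2 -0.07 ± 0.06, adjusted p = 0.497). Map1lc3b, whose lipid-bound protein is the usual marker of autophagosomes, was at 107, 115 and 97.1 CPM in WT and 104, 108 and 128 CPM in cKO. Only cKO 37 exceeded the WT range (log2 0.09 ± 0.09, adjusted p = 0.536). Map1lc3a was at 38.5, 42.7 and 39.3 CPM in WT and 38.3, 41.8 and 41.5 CPM in cKO (log2 0.01 ± 0.07, adjusted p = 0.92). The within-library log2 ratio of Map1lc3a over Map1lc3b overlapped between groups, at -1.48 to -1.30 in WT and -1.63 to -1.37 in cKO (exact permutation p = 0.5).

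None of the 4 rows for ATG4, the proteases that trim ATG8 proteins and release them from lipid, passed with edgeR, DESeq2 or limma voom, and 1 did at an unadjusted p under 0.05. That one is the row named Atg4a, which the file places on chromosome 3 at 103643953 to 103646068. RefSeq (GRCm38.p6) names the pseudogene Atg4a-ps at exactly that place and puts the coding gene Atg4a on the X chromosome. The counts of this row thus cover the interval of the pseudogene. Its value (18.4 ± 0.231 against 20.9 ± 1.202 CPM, log2 0.18 ± 0.07, adjusted p = 0.117) is uncertain and may mix reads of both. With the GC and length offset, which took GC from a transcript named Atg4a, its log2 fold change was 0.05. The row is counted among the 37 genes, the 14 with every cKO library above WT and the 13 higher at an unadjusted p under 0.05. The other 36 rows overlapped the RefSeq gene of their name. Atg4b, the main protease of this family, was at 39.5 ± 0.318 against 37.7 ± 2.68 CPM (log2 -0.07 ± 0.07), Atg4c at 0.06 ± 0.08 and Atg4d at -0.15 ± 0.09 on the log2 scale. Atg4d overlaps its neighbour Kri1, and strand use in the counting is not given, so its reads cannot be fully told apart.

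The cargo receptors held the most calls, with 3 of 5 genes higher. Calcoco1 (chromosome 15, 102706777 to 102722178) encodes a receptor for endoplasmic reticulum. It was at 54.3, 62.7 and 53.3 CPM in WT and 77.1, 66.2 and 79.4 CPM in cKO, with WT 27 and cKO 10 nearest to each other and no overlap (56.8 ± 5.19 against 74.3 ± 7.04 CPM, 1.31-fold, log2 0.39 ± 0.09, adjusted p = 0.0167). Optn (chromosome 2, 5020642 to 5063938), optineurin, a receptor for mitochondria and bacteria that is also known to restrain osteoclast formation, was at 23.3, 28.6 and 28.6 CPM in WT and 36.5, 33.9 and 34.6 CPM in cKO. WT 14 was the lowest, and the groups stayed well apart (1.304-fold, log2 0.38 ± 0.08, adjusted p = 0.0149). Nbr1 (chromosome 11, 101552107 to 101581951), a receptor for ubiquitinated proteins and peroxisomes, was at 115, 119 and 111 CPM in WT and 138, 133 and 136 CPM in cKO, again without overlap (log2 0.24 ± 0.06, adjusted p = 0.022). Omitting cKO 8 ended the call of Optn (adjusted p = 0.0729). Calcoco1 failed when WT 14, WT 29 or cKO 8 was omitted (0.0581 to 0.0779), and Nbr1 when any of those or cKO 10 was omitted (0.0517 to 0.1).

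Sqstm1, or p62, the best known receptor and itself degraded by autophagy as a protein, showed no such difference in RNA. It was at 178, 190 and 183 CPM in WT and 171, 167 and 204 CPM in cKO, with cKO 8 and cKO 10 below and cKO 37 above WT (log2 -0.02 ± 0.08, 95% confidence interval -0.20 to 0.15, adjusted p = 0.868). Tax1bp1, a receptor related to Calcoco1, was at 100.3, 100.4 and 106 CPM in WT and 114, 110.5 and 125 CPM in cKO. It did not overlap between groups but did not pass (log2 0.19 ± 0.06, adjusted p = 0.0748), except with upper-quartile factors (0.0476). With the GC and length offset its log2 fold change was 0.06 (adjusted p = 0.487). The log2 ratio of Sqstm1 over Nbr1, both of which bind ubiquitin, was 0.63, 0.68 and 0.72 in WT and 0.31, 0.33 and 0.59 in cKO. It was 0.27 lower in cKO, without overlap but with cKO 37 close to WT 14 (exact permutation p = 0.1, adjusted 0.167).

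**Figure D2:**
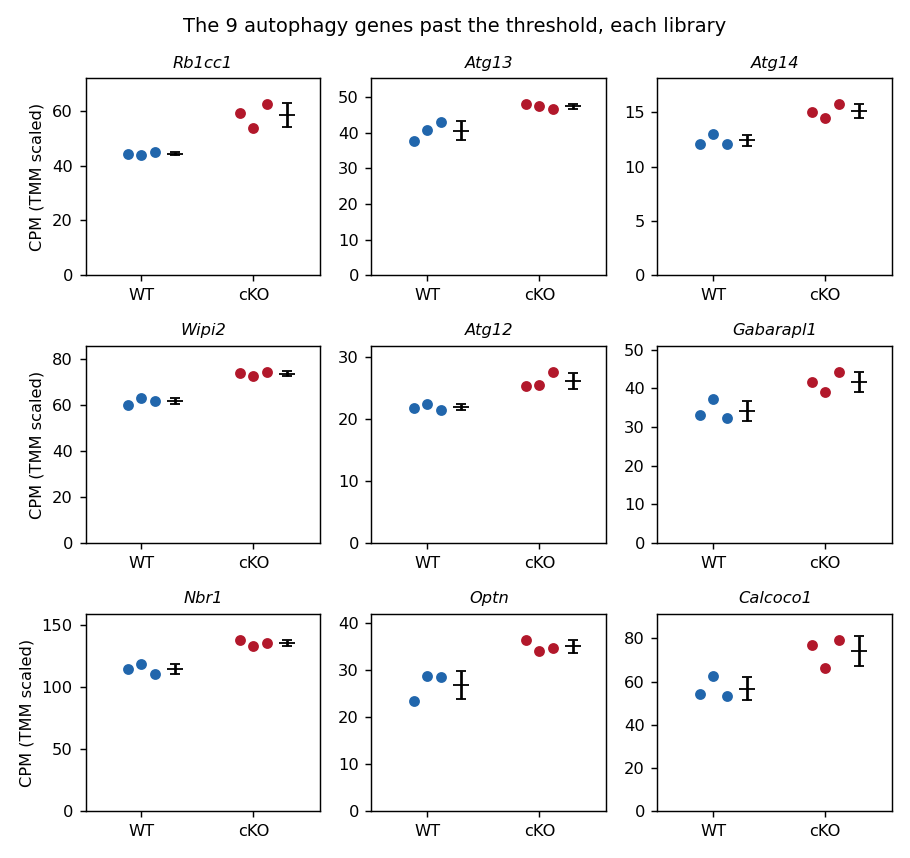
TMM-scaled CPM of the 9 autophagy genes past the threshold (vertical axes start at 0), 1 point per library (blue WT, red cKO), with the mean and SD of each group (black, n = 3) beside the points. In each panel every cKO point lies above every WT point, as in Gabarapl1, where the closest are WT 27 at 37.2 and cKO 10 at 39.2 CPM.

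**Figure D3:**
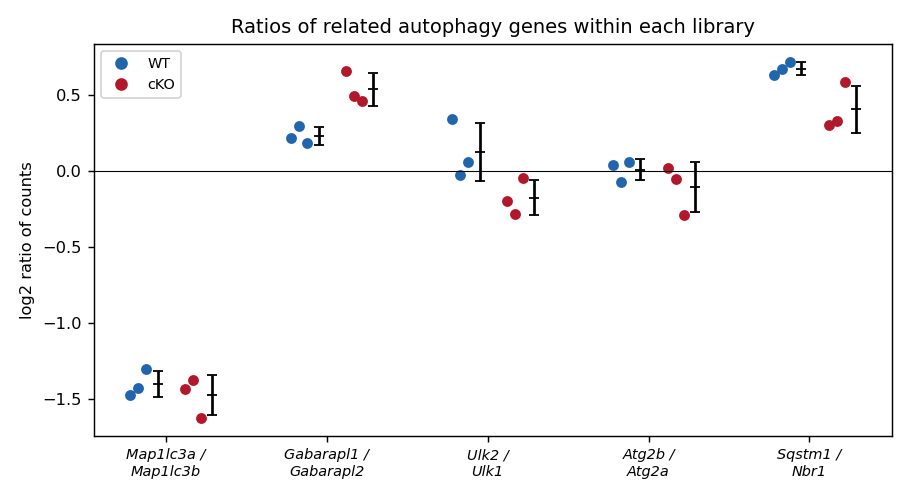
Log2 ratio of counts (vertical axis) of 5 pairs of related autophagy genes within each library (blue WT, red cKO), with group mean and SD (black, n = 3). Gabarapl1 over Gabarapl2, Ulk2 over Ulk1 and Sqstm1 over Nbr1 do not overlap between the groups, whereas Map1lc3a over Map1lc3b and Atg2b over Atg2a do.

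Promoter sequences were available for 30 of the 37 genes, 7 of them among the 9 that rose, as RefSeq (GRCm38.p6) windows of 300 bases, with 250 before and 50 after each start site. Both strands were searched for CACGTG, the E-box bound by Tfeb and other factors, for its longer form GTCACGTG, for TGATGNAA (an Atf4-type element), TGACNNNGC (an Nfe2l2-type element) and TGANTCA (an AP-1 element). CACGTG was present in 4 of the 30, or 13.3%, against 8.09% of all 27025 genes with a promoter, and GTCACGTG, which contains it, in 3 (10% against 2.55%). TGACNNNGC was found in 4 (13.3% against 13.99%), and TGATGNAA and TGANTCA in none (4.51% and 8.97% of all). The 27025 genes were not limited to those tested here or matched for promoter GC, and the shares were not tested. A match is a run of letters and does not show binding.

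The windows with the E-box are shown because Tfeb is known to bind this motif and Tfeb RNA is among the values below. Capitals mark CACGTG, each window has up to 30 bases on either side, and all are written 5′ to 3′ on the gene's strand. Atg3 holds 2 copies 17 bases apart (chr16:45158705-45158793, plus strand), Atg7 1 at an internal start site (chr6:114670934-114670999, plus strand), Atg5 1 (chr10:44268295-44268348, plus strand) and Atg14 1 that spans the start site (chr14:47568425-47568465, minus strand).
Atg3: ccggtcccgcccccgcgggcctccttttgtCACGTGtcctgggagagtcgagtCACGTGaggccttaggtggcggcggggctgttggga
Atg7: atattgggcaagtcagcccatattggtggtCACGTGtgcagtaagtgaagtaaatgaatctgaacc
Atg5: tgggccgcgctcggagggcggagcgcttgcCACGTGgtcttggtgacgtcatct
Atg14: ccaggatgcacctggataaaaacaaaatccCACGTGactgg

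Of these, Atg14 rose (log2 0.28), Atg3 was at -0.16 without passing, and Atg7 and Atg5 were at 0.02 and -0.02. CACGTG and TGACNNNGC were each in 1 of the 7 genes that rose and have a promoter here (14.3%). Each was also in 3 of the 23 with a promoter that did not pass (13.0%), and GTCACGTG was in 1 and 2 of them (14.3% and 8.70%). Among the 7 that rose, 5 held none of the 5 motifs. The 250 bases before the start sites of the receptors with the largest rises are shown as examples of that, in lower case throughout because no motif occurs in them (Calcoco1 at chr15:102722179-102722428 and Optn at chr2:5064118-5064367, both minus strand).
Calcoco1: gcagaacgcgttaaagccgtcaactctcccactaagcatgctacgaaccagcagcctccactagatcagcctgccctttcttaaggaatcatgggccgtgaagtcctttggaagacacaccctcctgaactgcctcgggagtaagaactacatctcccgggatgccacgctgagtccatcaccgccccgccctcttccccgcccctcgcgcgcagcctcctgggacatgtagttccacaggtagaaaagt
Optn: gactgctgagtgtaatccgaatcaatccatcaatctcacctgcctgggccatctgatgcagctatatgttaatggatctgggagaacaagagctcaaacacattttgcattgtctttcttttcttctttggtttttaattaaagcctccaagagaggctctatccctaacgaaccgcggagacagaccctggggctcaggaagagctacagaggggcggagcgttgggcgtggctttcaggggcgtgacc

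Per length, the autophagy genes spanned from below 1 RPKM to over 100 in the deposited values. Gabarap led at 127 ± 9.19 RPKM in WT and 122 ± 9.37 in cKO, followed by Sqstm1 (68.4 ± 5.14 and 67.7 ± 9.27), Map1lc3b (46.3 ± 5.59 and 49.6 ± 7.24) and Wipi1 (33.1 ± 1.01 and 34.5 ± 2.66). The first 3 differed from each other by more than their SDs. Map1lc3a came next (28.6 ± 2.84 and 29.05 ± 2.67), and then Tax1bp1, Gabarapl2 and Becn1, whose WT means were 23.1 ± 0.934, 22.1 ± 1.75 and 20.8 ± 0.335 RPKM, so that Gabarapl2 lay within its spread of both neighbours. ATG8 proteins and receptors filled most of the upper ranks, and Optn was the scarcest receptor at 8.29 ± 1.17 and 10.8 ± 0.141 RPKM. At the low end were Atg14 (2.68 ± 0.233 and 3.27 ± 0.204), Atg4d, Atg4c, Atg10 (2.01 ± 0.123 and 1.86 ± 0.138) and Atg9b. The genes that rose were thus spread over the range, from Nbr1 at 16.7 ± 1.25 RPKM in WT to Atg14, and none was among the 8 most abundant. Within groups the libraries were close, with a median coefficient of variation over the 37 genes of 3.82% in WT and 5.76% in cKO.

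**Figure D4:**
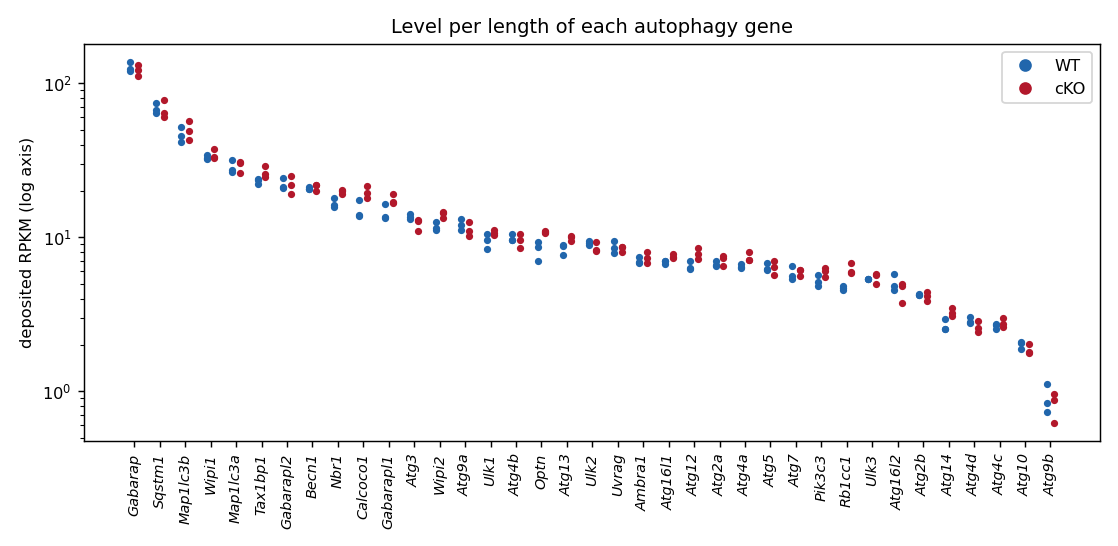
Deposited RPKM (log axis) of the 37 autophagy genes in each library (blue WT, red cKO), ordered by mean level. Gabarap is highest at about 127 RPKM in WT and Atg9b lowest at 0.894.

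Genes of the pathway outside the rule were read from a list, also chosen with earlier results of these data known. It held 71 genes, all of which could be tested. Of these 14 were higher and 3 lower in cKO (median log2 0.03), where 5.96% of all genes tested were higher and 6.45% lower. Among mTORC1, the kinase complex that blocks initiation, and its inputs, 3 of 13 rose and 1 fell. Tsc1, which restrains mTORC1, rose from 46.6 ± 1.84 to 66.9 ± 3.77 CPM (log2 0.52 ± 0.06, adjusted p = 0.00164). Sesn1, a stress-induced inhibitor of the same complex, rose by 0.49 ± 0.08 on the log2 scale and the lysosomal GTPase Rragd by 0.45 ± 0.12, whereas Akt1s1, the inhibitory subunit PRAS40, fell by 0.22 ± 0.06. Mtor itself was at -0.16 ± 0.06 and Tsc2 at -0.14 ± 0.07, and neither passed (adjusted p = 0.0958 and 0.221). The median over the 13 was 0.06. Rragd, Mtor, Tsc2, Prkaa2, Prkag2, Stk11, Tbk1, Epg5, Trp53inp2 and Atg101 were named after their values were seen. Of 7 AMPK genes, the catalytic subunit Prkaa1 alone rose (log2 0.34 ± 0.07, adjusted p = 0.0113), and the median over the 7 was -0.08. Prkaa2 was at 0.16 ± 0.16 and did not pass. Prkag2 and Stk11 were both at -0.18 ± 0.06, below WT without overlap, and did not pass either (adjusted p = 0.0811 and 0.0813).

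Among 15 partners of initiation and of the PI3 kinase, 5 rose. They were the ATG8-binding stress protein gene Trp53inp1 (0.51 ± 0.06), the phospholipid reader Wdr45 (0.48 ± 0.07), Zfyve1, a marker of the membrane from which autophagosomes arise (0.44 ± 0.07), the kinase Tbk1, which phosphorylates OPTN (0.39 ± 0.08), and Epg5 (0.26 ± 0.06), listed as 5430411K18Rik. Among the 15 partners the median was 0.04, and Trp53inp2 was at -0.26 ± 0.08 without passing (adjusted p = 0.0643). Of 13 other receptors, the endoplasmic reticulum receptors Retreg1 (0.30 ± 0.07, listed as Fam134b) and Ccpg1 (0.24 ± 0.07) rose. Of 13 fusion genes, the SNARE gene Stx17, which joins autophagosomes to lysosomes, rose from 33.5 ± 1.26 to 46.8 ± 2.52 CPM (log2 0.48 ± 0.06, adjusted p = 0.00205), and the tethering subunit Vps11 rose by 0.22 ± 0.06. Among 10 transcriptional regulators, Nfe2l2, the NRF2 factor of the oxidative stress response, rose by 0.58 ± 0.09 (adjusted p = 0.00417), and Atf4 (-0.33 ± 0.06) and Tfeb (-0.29 ± 0.08), both known activators of autophagy genes, fell (adjusted p = 0.00755 and 0.0332). Tsc1, Sesn1, Trp53inp1, Wdr45, Zfyve1, Stx17, Nfe2l2 and Atf4 passed under every alternative run. The GC and length offset left 10 genes of the list higher and 7 lower and ended the calls of Prkaa1 (0.0519), Rragd (0.077), Retreg1, listed as Fam134b (0.0581), Ccpg1 (0.0693), Akt1s1 (0.155) and Tfeb (0.142), and 7 were higher and 1 lower without cKO 8. Upper-quartile factors also ended the call of Akt1s1 (log2 -0.20, adjusted p = 0.0527). Leaving out cKO 8 ended the calls of Prkaa1 (0.0594) and Tbk1 (0.0534), and leaving out WT 14, WT 29 or cKO 8 that of Retreg1 (0.0583 to 0.0779). Vps11 did not pass without any one library, Tfeb, Akt1s1 and Epg5 did not without any one other than cKO 37, Rragd without any one other than WT 27, and Ccpg1 without WT 27, WT 29, cKO 8 or cKO 37 (adjusted p from 0.0516 to 0.159 over these).

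**Figure D5:**
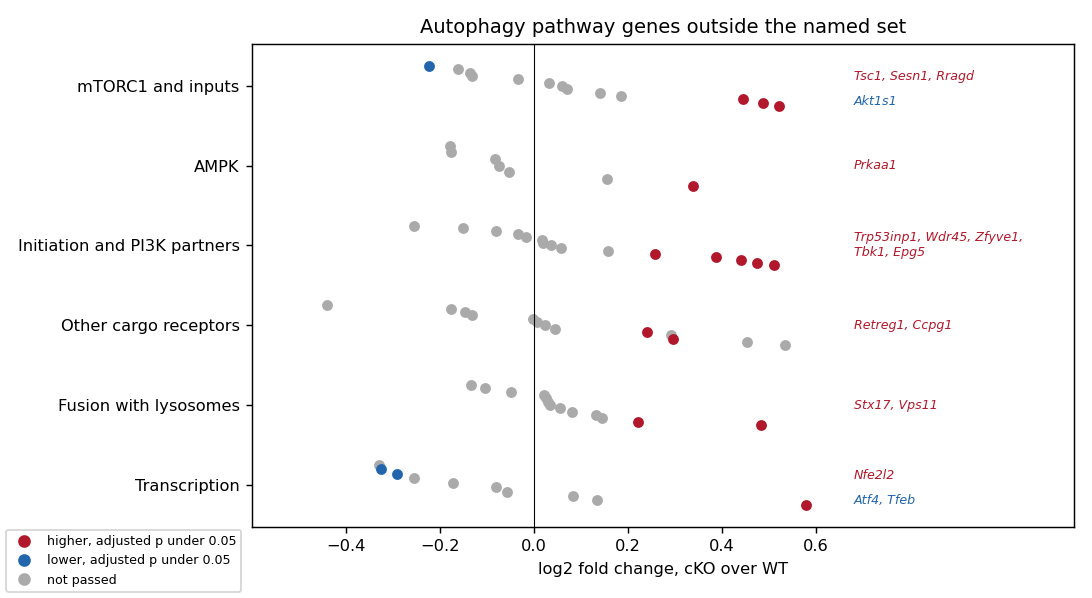
Log2 fold change (cKO over WT, horizontal axis) of 71 pathway genes outside the rule, in 6 groups. Red points are the 14 genes higher and blue points the 3 lower at an adjusted p under 0.05, named at the right; grey points did not pass.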

How the data were processed

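The count values, deposited by the authors as reads per gene, were the basis of every test. Per the submitters' processing notes, bcl2fastq, TopHat2 2.0.6, HTSeq and mm10 were used; for annotation and strand use, not given in the sources used here. Every count is even (0 odd). RPKM values deposited by the authors were used only to compare levels between genes, and the gene model lengths as listed.

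Genes passing filterByExpr (minimum count 10) were scaled by TMM and tested with edgeR 4.0.16 (R 4.3.3), cKO against WT, by the robust quasi-likelihood F test, with Benjamini-Hochberg adjustment over 16089 genes. Standard errors and 95% confidence intervals come from that model. The 5 ratios were tested by exact permutation. Every member is named, and those past the threshold and 18 fixed ones get library values. Members and lists were chosen with earlier results of these data known. Alternatives used RLE or upper-quartile factors, other filters, DESeq2 1.42.0, limma 3.58.1 voom, halved counts, a threshold of 0.1 and omission of each library. A GC and length offset, with GC from GENCODE M21 transcripts for 98.6% of genes tested, was added later. The steps were also run on simulated counts with known fold changes, and the recovery is not reported here.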

Additional observations from a re-analysis of the deposited data

How the results depend on the processing

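With an adjusted p threshold of 0.1, the numbers were 1593 genes higher and 1684 lower (3277 in all) and, among autophagy genes, 12 higher and 1 lower (Atg3). The 71 pathway genes then had 16 higher and 9 lower. They had 16 higher and 5 lower with DESeq2, where 1217 of all 16089 genes were higher and 1389 lower. With the GC and length offset they had 10 higher and 7 lower, where 743 of all genes were higher and 1426 lower. The offset called 1 autophagy gene lower. Leaving out each library in turn gave 586 to 1985 calls (291 to 932 higher, 295 to 1053 lower), 1 to 6 autophagy genes higher, and 7 to 13 pathway genes higher and 1 to 6 lower. Fewer libraries were fitted there, and the cause of the differences between libraries was not tested. No value of the 9 called genes changed sign in any alternative. Of the 28 others, 13 changed sign in at least 1, all at most 0.131 from 0 (log2) as reported. Over the omitted libraries they ran from -0.0178 to 0.0536 (Map1lc3a), -0.245 to 0.00609 (Atg9b), -0.0188 to 0.0673 (Atg7), -0.0966 to 0.0113 (Uvrag), -0.11 to 0.042 (Gabarapl2), -0.00924 to 0.152 (Map1lc3b), -0.0553 to 0.109 (Ulk3), -0.0839 to 0.0144 (Atg5), -0.00749 to 0.0334 (Becn1), -0.126 to 0.0217 (Sqstm1), -0.00386 to 0.0974 (Wipi1) and -0.0789 to 0.0253 (Atg2b). Upper-quartile factors gave 0.00981 for Gabarapl2, 0.00364 for Atg5 and 0.0024 for Sqstm1, and the GC and length offset -0.0511 for Atg4c and -0.0285 for Becn1. The 5 ratios kept their direction without any one library, but 2 of them rested largely on cKO 37. For Map1lc3a over Map1lc3b and Atg2b over Atg2a, cKO 37 lay below WT (log2 -1.63 and -0.29). In both, cKO 8 and cKO 10 lay inside the WT range. No paired analysis was possible because the groups share no replicate number. The scarcest autophagy genes by CPM, Atg10 and Atg9b, had the widest standard errors of the 37 (0.12 and 0.17 on the log2 scale), and the shares of depth and of having 3 libraries per group in these errors were not tested.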
